A study of Mus musculus with 24 samples.

Results

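The response of the dorsal hippocampus to contextual fear conditioning (CFC) was measured within CBP KIX/KIX mutant mice, by setting trained mutants against mutants of the same genotype taken from the homecage. Libraries were chosen by their labels: all of the CBP KIX/KIX libraries of the sequencing experiment called RNA-Seq 2, which are 8 of the 24 libraries of the series. There were 4 CFC libraries and 4 homecage libraries, all from dorsal hippocampus of male mice on a C57BL/6j background, aged 2 to 4 months. The trained mice had explored a chamber, received a foot shock there and were killed 1 h later, whereas homecage mice were not trained. Every mouse of both groups was homozygous for point mutations that alter the KIX domain of the protein CBP, a germline change present in all cells and throughout development, so that neither group holds a normal KIX domain. For comparison, 7 WT libraries of RNA-Seq 2 were used, 4 after CFC and 3 from the homecage. The libraries were made from poly(A)-selected RNA and counted per gene. The labels number the libraries of a group but name no animals, so that p-values here measure the spread between libraries.

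CBP, encoded by *Crebbp*, is a transcriptional co-activator and histone acetyltransferase. Its KIX domain is a docking surface for transcription factors, among them CREB phosphorylated in its kinase-inducible domain, and c-MYB. In neurons, calcium and cAMP signals that follow synaptic activity lead within minutes to phosphorylation of CREB and of the ternary complex factors that act with serum response factor, and a set of immediate-early genes is transcribed without new protein synthesis. This set includes transcription factors (*Fos*, *Egr1*, *Npas4*, *Nr4a1*), a synaptic effector (*Arc*) and inhibitors that shut the signal down again (*Dusp1*, *Sik1*). CREB binds the cAMP response element, a palindrome of which one arm can be enough, so that many promoters carry only the core TGACG.

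Promoter sequence of 5 genes is shown because the mutation lies in the domain that CREB uses to recruit CBP, and because these genes were higher after CFC in at least one of the fits described later. The bases precede the start site that RefSeq gives on GRCm38.p6, read 5′ to 3′ on the gene's strand, and stop where GENCODE M21 begins an exon of the same gene. Capitals mark each TGACG or its reverse complement CGTCA, and the full palindrome TGACGTCA where it occurs; matches that overlap were counted once. *Fos* (chr12:85473640-85473889, plus strand) held 2 core sites, *Junb* (chr8:84978749-84978998, minus strand) 1, *Nr4a1* (chr15:101266596-101266845, plus strand) 4, *Dusp1* (chr17:26508520-26508722, minus strand) 2, one of which was the full palindrome, and *Capn11* (chr17:45659326-45659559, minus strand) 0.
Fos: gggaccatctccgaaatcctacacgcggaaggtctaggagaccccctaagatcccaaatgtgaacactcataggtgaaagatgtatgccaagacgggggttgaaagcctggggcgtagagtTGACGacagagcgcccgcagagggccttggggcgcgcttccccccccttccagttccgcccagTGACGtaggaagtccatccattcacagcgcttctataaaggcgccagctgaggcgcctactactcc
Junb: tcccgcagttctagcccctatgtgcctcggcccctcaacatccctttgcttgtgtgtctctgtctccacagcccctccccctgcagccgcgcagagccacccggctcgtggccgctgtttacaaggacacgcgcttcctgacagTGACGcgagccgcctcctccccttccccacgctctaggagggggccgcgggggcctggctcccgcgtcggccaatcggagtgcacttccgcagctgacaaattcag
Nr4a1: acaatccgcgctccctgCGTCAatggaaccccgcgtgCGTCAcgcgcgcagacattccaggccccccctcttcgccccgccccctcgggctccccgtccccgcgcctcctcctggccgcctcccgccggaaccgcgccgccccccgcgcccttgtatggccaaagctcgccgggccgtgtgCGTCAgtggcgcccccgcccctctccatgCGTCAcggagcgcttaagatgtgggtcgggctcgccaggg
Dusp1: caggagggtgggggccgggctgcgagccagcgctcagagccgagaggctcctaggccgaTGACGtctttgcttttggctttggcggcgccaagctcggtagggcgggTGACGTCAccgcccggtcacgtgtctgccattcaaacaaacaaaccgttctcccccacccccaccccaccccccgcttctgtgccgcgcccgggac
Capn11: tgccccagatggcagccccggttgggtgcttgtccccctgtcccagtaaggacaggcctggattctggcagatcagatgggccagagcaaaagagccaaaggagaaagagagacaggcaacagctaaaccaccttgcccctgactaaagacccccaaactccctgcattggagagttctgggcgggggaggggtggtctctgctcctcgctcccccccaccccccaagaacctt
Among 32851 RefSeq promoters, TGACG on either strand lay within 250 bases upstream of 17.8%, and the full palindrome upstream of 1.55%. Of the 13 genes called without one of the homecage libraries (described next), promoters of 8 were searched. *Arc*, *Ier2*, *Sik1* and *Zmym1* had no promoter entry, and *Egr1* was left out of the search. Of the 8 genes searched, 6 had a core site in at least one listed promoter and 1 had the full palindrome. Counted in the same way by gene, 19.8% of 27025 genes had a core site in at least one listed promoter. The match describes letters only and says nothing of binding in these mice.

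Total counts ran from 15940061 to 46056290 in the 8 libraries. Libraries numbered 1 and 2 in either group were sequenced more deeply than those numbered 3 and 4, and the first principal component of the 8, with 35.5% of the variance, separated the same libraries. Markers of excitatory neurons, interneurons, astrocytes, microglia and oligodendrocytes were counted in all 8 libraries, as hippocampal tissue would give. Transcripts of the choroid plexus, the ventricular epithelium that adjoins the hippocampus, were also counted for 16 of 16 markers, with no marker at 0. Their summed level was 538, 355, 4318 and 1351 CPM, that is counts scaled to the upper-quartile library size, in homecage libraries 1 to 4 and 231, 304, 6347 and 3491 CPM in CFC libraries 1 to 4, so that the libraries numbered 3 and 4 were high in both groups. The mutated gene *Crebbp* lay between 65.2 and 78 CPM in all 8 libraries, but a point mutation leaves its count unaffected and the value does not check the genotype.

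Homecage library 3 stood apart from the other homecage libraries in its activity genes, and the counts of calls and the genes named are given with and without it. It was the highest of all 15 RNA-Seq 2 libraries, trained ones included, for 20 of 27 immediate-early transcription factors (74.1%), 8 of 23 synaptic and secreted activity effectors, 8 of 16 inhibitors of MAPK and growth-factor signalling and 5 of 10 growth-arrest and survival genes. Over all genes tested it was highest for 7.32%. None of 19 genes of the CREB pathway (CREB family members, CBP, p300, CRTC co-activators and kinases) and none of the 16 choroid plexus markers was highest there. The label calls this library homecage and was kept. Since the library was singled out by these same genes, leaving it out is not independent of them, and the fit without it cannot be read as a test made blind to activity genes.

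With all 8 libraries, training changed few transcripts beyond the spread between mutants. *Capn11*, which encodes a calpain protease known mainly from testis, and *Zmym1*, which encodes a zinc-finger protein of the MYM type, rose after CFC, and no gene fell. These were 2 of 17717 genes tested by edgeR's quasi-likelihood test at an adjusted p under 0.05, or 0.0113% higher and 0% lower. At an unadjusted p under 0.05 there were 1670 genes, 744 higher and 926 lower. No immediate-early transcription factor was called: of 27 tested, 10 had a higher and 17 a lower estimate, with a median log2 fold change of -0.19 against 0.0045 over all genes.

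Without homecage library 3 the genes that rose were largely immediate-early genes. In this fit 13 of 18725 genes were higher after CFC (0.0694%) and none (0%) was lower, with 595 higher and 604 lower at an unadjusted p under 0.05. The 13 were the transcription factors *Fos*, *Egr2*, *Npas4*, *Egr1*, *Nr4a1*, *Junb* and *Ier2*, the synaptic effector *Arc*, the feedback genes *Sik1* and *Dusp1*, the anti-proliferative gene *Tob2*, and again *Capn11* and *Zmym1*. Of the transcription factor list, 7 of 27 rose, none fell, and the median log2 fold change was 0.38 against 0.0035 over all genes. All 4 trained libraries lay above homecage libraries 1, 2 and 4 for 15 of the 27, where 3.91% of all genes did so; with homecage library 3 among them the count was 0 of 27, against 2.54% of all genes.

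*Fos*, the founding member of the AP-1 family, showed the pattern most plainly. It was counted at 2.86, 1.83, 117 and 4.77 CPM in homecage libraries 1 to 4 and at 22.2, 18, 24.9 and 24 CPM in CFC libraries 1 to 4. The trained libraries were close to one another and above homecage libraries 1, 2 and 4, but homecage library 3 was higher than any of them. Without library 3 the log2 fold change was 2.91 (SE 0.276, adjusted p = 0.0107 by edgeR, 7.51-fold), and with it the estimate was -0.46 (SE 1.09, adjusted p = 0.916).

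*Egr2*, a zinc-finger factor of the early growth response family, had the largest estimate among the 13. Homecage libraries 1 to 4 held 0.744, 0.306, 40 and 0.879 CPM, and trained libraries 1 to 4 held 4.82, 5.03, 5.43 and 5.36 CPM. Only library 3 of the homecage group reached or passed the trained level. The difference was 3.10 on the log2 scale (SE 0.299, adjusted p = 0.0107, edgeR) without that library and -0.97 (SE 1.21, adjusted p = 0.826) with it. *Egr1*, of the same family, read 81.1, 45.9, 442 and 55 CPM in the homecage and 194, 165, 160 and 156 CPM after training, for a log2 fold change of 1.47 (SE 0.179, adjusted p = 0.0361) without library 3 and 0.12 (SE 0.63) with it. *Egr4* followed the same order of libraries without passing the test (1.26, SE 0.183, adjusted p = 0.0905, and 0.02, SE 0.603, with library 3), and *Egr3* had estimates of 0.11 (SE 0.196) without and -0.29 (SE 0.304) with that library, neither called.

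*Npas4*, a factor induced by calcium entry, stood at 9.94, 5.54, 131 and 6.41 CPM in homecage libraries 1 to 4 and at 22.2, 19.2, 19 and 22.6 CPM in the trained ones. Its log2 fold change was 1.5 (SE 0.191, adjusted p = 0.0373, edgeR) without library 3 and -0.85 (SE 0.905, adjusted p = 0.79) with it. The orphan nuclear receptor *Nr4a1* read 47.2, 30, 322 and 33.3 CPM in the homecage against 94.1, 87.8, 86.2 and 92.8 CPM after CFC. Trained libraries of *Nr4a1* lay close together and below homecage library 3, and the log2 fold change without library 3 was 1.29 (SE 0.141, adjusted p = 0.02), against -0.25 (SE 0.68, adjusted p = 0.932) with it. *Junb*, an AP-1 partner of FOS, read 33.2, 26.3, 202 and 28.4 CPM in the homecage against 64.1, 65.3, 62.7 and 60.5 CPM, and had the lowest adjusted p of this fit (log2 fold change 1.11, SE 0.0847, adjusted p = 0.00683). With library 3 its estimate was -0.18 (SE 0.6, adjusted p = 0.946). Reads of *Junb* exons can also come from *Prdx2*, which overlaps it on the opposite strand. *Ier2* rose by 0.89 (SE 0.113, adjusted p = 0.0368) without library 3 and stood at 0.02 (SE 0.47, adjusted p = 0.993) with it. *Fosb*, with 6.28, 6.13, 104 and 8.54 CPM in the homecage and 14.4, 9.9, 11.6 and 13.8 CPM after training, was not called without library 3 (0.85, SE 0.171, adjusted p = 0.48) or with it (-1.30, SE 0.87, adjusted p = 0.656).

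*Arc*, whose protein acts in endocytosis of AMPA receptors at synapses, was the only effector called without library 3. Homecage libraries 1 to 4 held 77.7, 53.2, 617 and 77.9 CPM, and trained libraries 1 to 4 held 225, 240, 211 and 192 CPM. Again 3 of the 4 homecage libraries lay below all trained ones and library 3 far above. The fold change was 3.13 without library 3 (log2 1.64, SE 0.141, adjusted p = 0.00922, edgeR) and 1.05 with it (log2 0.08, SE 0.684, adjusted p = 0.984). *Arc* was 1 of 23 effectors called, while 10 of the 23 were lower at an unadjusted p under 0.05 and the median of the list was -0.31. Of all 18725 genes in that fit, 0.0694% were called higher and 604 were lower at an unadjusted p under 0.05. With library 3, 0 of the 23 were called, 11 were lower at an unadjusted p under 0.05 and the median was -0.37. Of all 17717 genes in the fit with library 3, 926 were lower at that threshold.

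Of 16 inhibitors of MAPK and growth-factor signalling 1 rose without library 3 (*Dusp1*), as did 1 of 10 growth-arrest and survival genes (*Tob2*) and 1 of 19 CREB pathway genes (*Sik1*). Of all genes, 0.0694% were called higher in that fit. None of the 3 lists held a called gene with library 3. *Dusp1*, a phosphatase of MAP kinases, read 10.4, 9.14, 25.3 and 7.1 CPM in the homecage and 20.4, 16.4, 20.2 and 19.6 CPM after CFC, 2.13-fold higher without library 3 (log2 1.09, SE 0.137, adjusted p = 0.0368, edgeR) and 1.49-fold with it (log2 0.57, SE 0.33, adjusted p = 0.603). Some *Dusp1* counts may belong to *Ergic1* on the other strand. *Sik1*, the kinase that keeps CRTC co-activators of CREB out of the nucleus, read 6.28, 5.65, 19.1 and 7.41 CPM in the homecage and 15.8, 14, 18.5 and 17.6 CPM after training. Its difference was 1.36 (SE 0.136, adjusted p = 0.0112) without library 3, and with all 8 libraries the estimate stayed positive at 0.80 (SE 0.345, adjusted p = 0.518). *Tob2*, an anti-proliferative gene of the BTG/TOB family, read 23.9, 21.8, 30.1 and 20 CPM against 32.6, 32.7, 34.5 and 32.3 CPM, so that trained libraries exceeded every homecage library, the third included. Its log2 difference was 0.58 (SE 0.0733, adjusted p = 0.0368) and 0.46 with library 3 (SE 0.11, adjusted p = 0.491). *Btg2* (0.95, SE 0.141, adjusted p = 0.0995) and the phosphatase *Dusp6* (0.42, SE 0.0717, adjusted p = 0.243) did not pass without library 3, nor with it, at 0.01 (SE 0.499) and -0.0015 (SE 0.264).

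**Figure D1:**
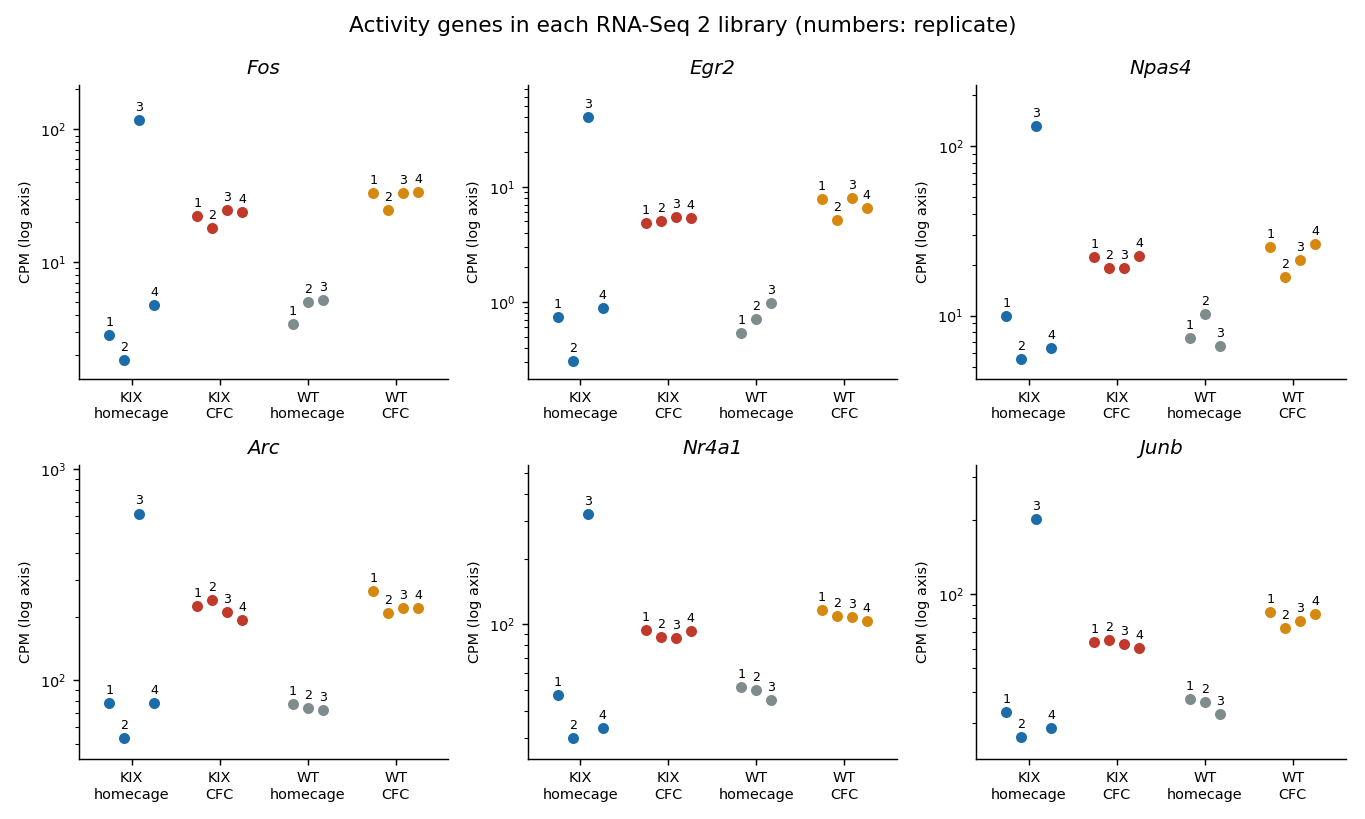
Level of activity genes in CPM on a log axis, 1 point per library, for CBP KIX/KIX and WT mice in the homecage and after CFC. Homecage library 3 of the mutants lies above the trained mutants, as for *Fos* at 117 CPM against 18 to 24.9, while the other mutant homecage libraries lie below them.

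A transcript that carries 2 microRNAs showed the same order of libraries. *1700016P03Rik* (chr11:75172560-75177633, plus strand, a gene chosen for mention after its values were seen) contains *Mir212* and *Mir132*, whose products regulate neurite growth and whose host is a known CREB target. It was counted at 1.4, 0.895, 14.3 and 2.14 CPM in the homecage and at 4.85, 4.38, 5.22 and 5.89 CPM after CFC (log2 1.85 without library 3, SE 0.268, adjusted p = 0.0905, edgeR, and 0.19 with it, SE 0.737, adjusted p = 0.954), and thus did not pass the test. The mature sequences in RefSeq are shown with the seed, bases 2 to 8, in capitals, because both carry one seed and so would pair with the same sites; poly(A)-selected counts do not measure them. They lie at chr11:75173443-75173464 and chr11:75173723-75173744 on the plus strand of GRCm38.p6.
mmu-miR-212-3p: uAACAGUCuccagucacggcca
mmu-miR-132-3p: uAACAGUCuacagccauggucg

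The calls without homecage library 3 depended on the model and on single further libraries. Direction depended on library 3 itself, since the estimates of *Fos*, *Egr2*, *Npas4*, *Nr4a1* and *Junb* were negative with it. Homecage and CFC libraries of the same number deviated together, but so did others. Homecage library 2 correlated with CFC library 1 at 0.259 and with CFC library 2 at 0.251. With the replicate number as a block, which leaves CFC library 3 without a partner, none of the 13 genes passed. Their adjusted p-values in this edgeR fit ran from 0.0672 to 0.577, with log2 fold changes from 0.57 to 3.10, all positive. A block of libraries 1 and 2 against 3 and 4 called 14 genes, with 12 of the 13 among them. The blocked fit of 8 libraries called 2 genes, *Capn11* higher (log2 2.40, adjusted p = 0.0241) and the complement gene *C4b* lower (-0.97, adjusted p = 0.0241), the latter named after the result was seen. Whether reads of its close copy *C4a* entered the count of *C4b* was not tested. Leaving out a further library called 1 gene without CFC library 1, 6 without CFC library 2 or 3, 3 without CFC library 4, 35 without homecage library 1, 4 without homecage library 2 and 9 without homecage library 4. With the summed choroid plexus level as a covariate, chosen after the data were seen, 7 of the 13 were called. Estimates of the 13 were positive in each of the fits without library 3. All 4 trained libraries lay above homecage libraries 1, 2 and 4 for these genes. Omission of a further library thus left little room for a change of sign, and the kept sign is no added evidence. DESeq2 called 39 genes, 35 higher and 4 lower, the 13 among them.

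**Figure D2:**
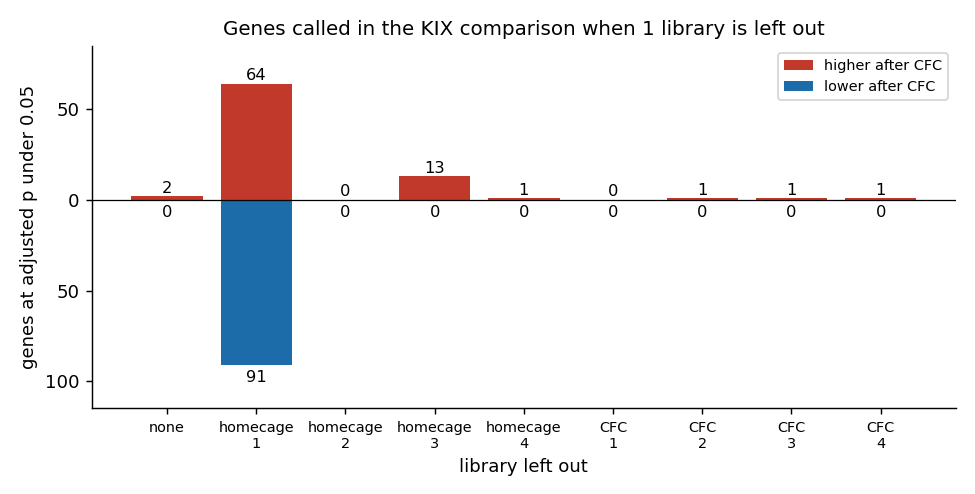
Number of genes higher and lower at an adjusted p under 0.05 in the edgeR fit when 1 library is left out in turn, from the 8 libraries. Counts lie between 0 and 155, with 155 when homecage library 1 and 13 when homecage library 3 is left out.

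The estimates also differed between the more and the less deeply sequenced libraries. Between libraries numbered 1 and 2 alone, *Fos* (3.10, SE 0.221, adjusted p = 0.0392) was called along with *Col6a3*, a gene named after the result was seen, and *Egr2* had an estimate of 3.26 (SE 0.346, adjusted p = 0.104). Between libraries numbered 3 and 4, a homecage group that contains library 3, the *Fos* estimate was -1.31 (SE 1.00, adjusted p = 0.498) and the *Egr2* estimate -1.92 (SE 1.12, adjusted p = 0.376). In that comparison 665 genes were called, 234 higher and 431 lower, *Capn11* and *Zmym1* among the former. Each of these fits compares 2 libraries with 2, and depth and choroid plexus content go with the library numbers.

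*Capn11* and *Zmym1* were the only genes called both with and without homecage library 3. *Capn11* was low in every homecage mutant, at 0.854, 0.982, 0.851 and 0.879 CPM, and higher in every trained mutant, at 5.06, 4.18, 3.75 and 6.72 CPM. These groups did not overlap, as for 2.54% of all genes in this direction, and the fold change was 5.42 (log2 2.44, SE 0.206, adjusted p = 0.00634, edgeR). In WT mice the groups overlapped, with 0.619, 3.62 and 0.906 CPM in the homecage and 11.2, 0.656, 1.21 and 0.548 CPM after CFC (log2 0.93, SE 1.02). Its difference between genotypes was not called and had a wide interval, from -0.95 to 3.96 with 15 libraries and from -1.17 to 4.13 without library 3.

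*Zmym1* read 15.6, 15.1, 16.3 and 15.4 CPM in the homecage and 23.1, 25.9, 27.1 and 23.4 CPM after CFC, 1.59-fold higher with no overlap (log2 0.67, SE 0.0727, adjusted p = 0.0315, edgeR). WT levels lay between and beyond these, at 14.8, 17.4 and 23.8 CPM in the homecage and 20, 20.6, 24.4 and 20.5 CPM after training. Exons of *Zmym1* overlap those of *Gm12940* on the opposite strand. Across all 47 fits the log2 fold change stayed between 2.25 and 2.58 for *Capn11* and between 0.63 and 0.81 for *Zmym1*. *Capn11* was called in 39 of these fits and *Zmym1* in 28. The fits share libraries and are not independent of one another.

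**Figure D3:**
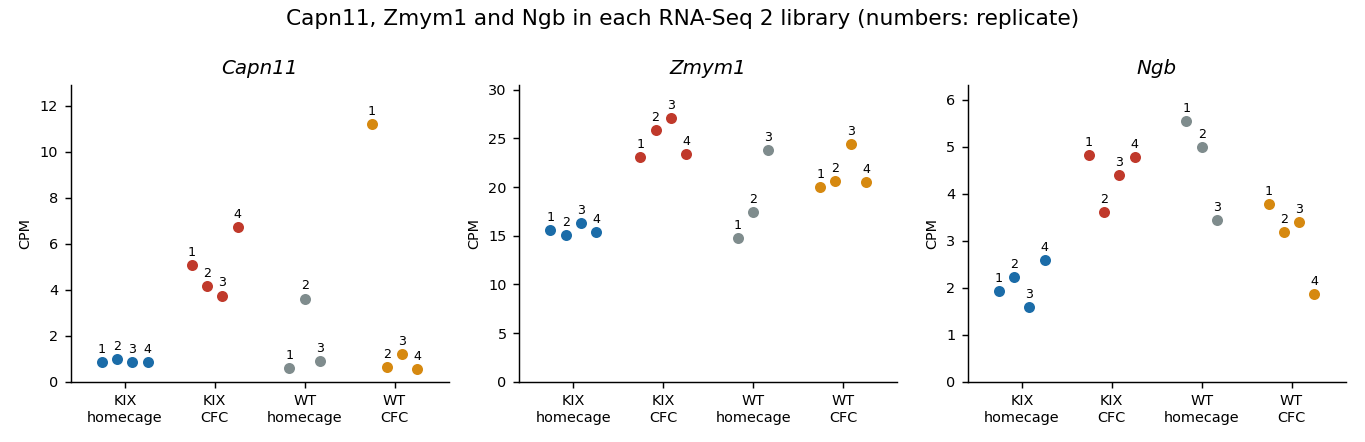
Level in CPM on a linear axis of *Capn11*, *Zmym1* and *Ngb*, 1 point per library in the 4 groups of RNA-Seq 2. Trained mutants lie above homecage mutants for all 3 genes, while WT libraries of *Capn11* and *Zmym1* overlap between homecage and CFC.

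The WT libraries give the response of a normal KIX domain measured in the same experiment. WT CFC exceeded WT homecage for 21 of 18115 genes (0.116%) and lay below for none, and no library is shared with the mutant comparison. Since WT values chose the list, they are given as a description. In mutants without homecage library 3, 10 of these 21 genes were called, 20 had an unadjusted p under 0.05 and 21 of 21 had a positive estimate. Of all 18725 genes in that fit, 0.0694% were called higher and 595 had a higher estimate at an unadjusted p under 0.05. Log2 fold changes ran from 0.30 to 3.28 with a median of 1.09 in WT and from 0.17 to 3.10 with a median of 1.09 in mutants. With all 8 mutant libraries 11 of the 21 were positive, none was called and the median was 0.0027. Homecage libraries 1, 2 and 4 of the mutants lay below all 4 trained mutants for 21, 21 and 20 of the 21 genes, where 15.4%, 23% and 32.8% of all genes did so. Library 3 lay above all of the trained mutants for 20, against 22.8% of all genes.

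**Figure D4:**
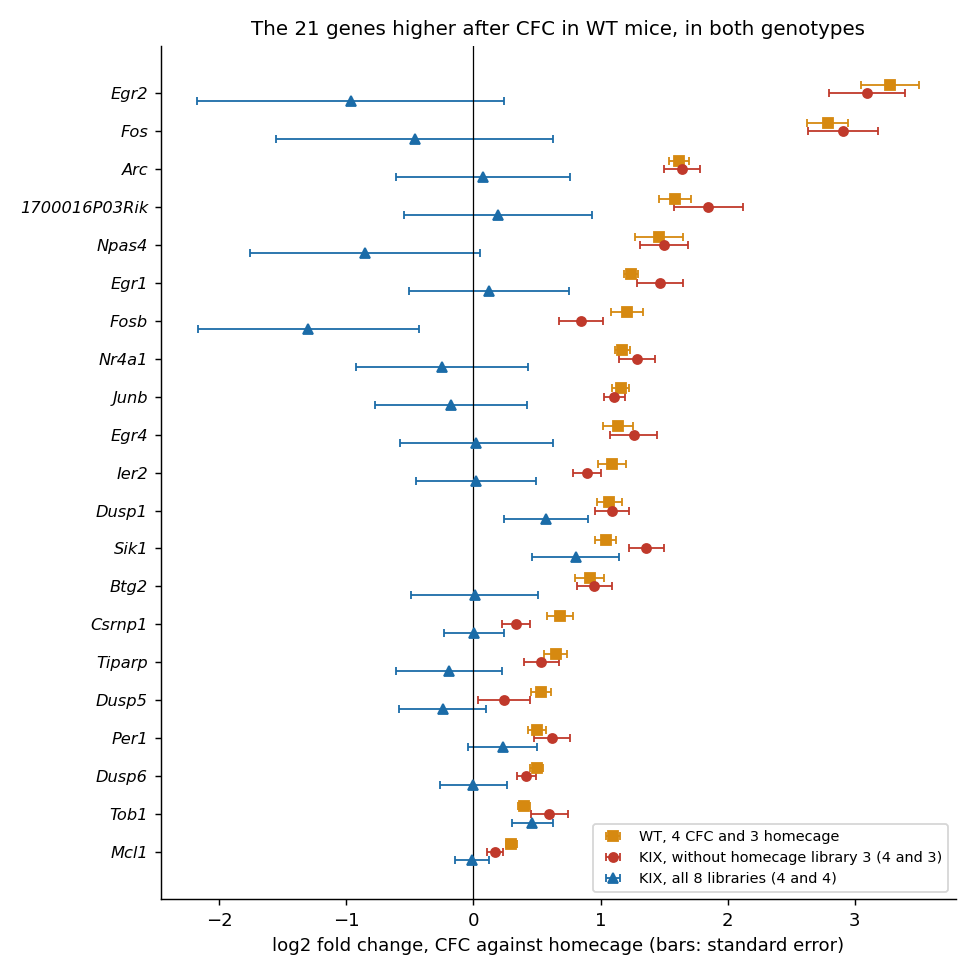
Log2 fold change of CFC against homecage, on the horizontal axis, for the 21 genes higher in WT mice, with a row for each gene. Each row shows WT and CBP KIX/KIX, the latter with and without mutant homecage library 3. Bars are standard errors. Without library 3 all 21 mutant estimates are positive, between 0.17 and 3.10; with it they spread from -1.30 to 0.80.

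Whether the response differed between genotypes was tested by the interaction of genotype and training in edgeR. None of 18851 genes (0%) passed with 15 libraries and none of 19066 (0%) without mutant homecage library 3, with 903 and 672 genes at an unadjusted p under 0.05. Within the 21 WT genes and without library 3, the mutant response minus the WT response ran from -0.36 to 0.31 with a median of 0.0251 on the log2 scale, 12 of 21 being positive. The 95% interval of the difference was -0.57 to 0.84 for *Fos*, -0.34 to 0.39 for *Arc*, -0.29 to 0.18 for *Junb* and -0.02 to 0.64 for *Sik1*. A p above the threshold does not show that the genotypes responded alike. These intervals hold only for the fit without library 3, which was singled out by its activity genes. Only *Csrnp1*, a cysteine- and serine-rich nuclear protein named after its value was seen, was under an unadjusted p of 0.05 there (-0.35, interval -0.65 to -0.05, adjusted p = 1). With library 3 the median difference was -1.07 and *Egr2* stood at -4.24, *Fos* at -3.24 and *Fosb* at -2.51, none of them called. The 95% intervals with library 3 were wide, at -6.22 to -0.27 for *Fos* and -3.29 to 0.23 for *Arc*. For *Junb* the interval was -2.86 to 0.21 and for *Sik1* -1.09 to 0.64.

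The neuroglobin gene *Ngb*, which encodes an oxygen-binding globin of neurons, had the lowest unadjusted p of the interaction. Mutants held 1.93, 2.23, 1.58 and 2.58 CPM in the homecage and 4.82, 3.6, 4.4 and 4.77 CPM after CFC, without overlap. WT mice held 5.54, 4.99 and 3.43 CPM in the homecage and 3.77, 3.19, 3.4 and 1.86 CPM after CFC, so that trained mutants lay within the range of untrained WT and homecage mutants below it. The response of mutants was 1.07 (SE 0.17, adjusted p = 0.342, edgeR) with 8 libraries and 0.98 (SE 0.169, adjusted p = 0.243) without library 3, and that of WT was -0.61. The difference of 1.69 (adjusted p = 0.83) with 15 libraries and 1.59 (adjusted p = 1) without library 3 was not called by edgeR, whereas DESeq2 called it in both fits.

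Secreted and synaptic effectors other than *Arc* were not higher after CFC, and many were high in untrained mutants. Homecage library 1 lay above all 4 trained mutants for 2 of 23 effectors, library 2 for 13, library 3 for 19 and library 4 for 18, where 18.2%, 22.2%, 22.8% and 28.3% of all genes did so. The 3 WT homecage libraries lay above all 4 trained WT libraries for 1, 1 and 4 of the 23. Of all genes, 21%, 22.5% and 22.6% did so. They lay below all of the trained WT libraries for 13, 15 and 10, against 17.8%, 17.4% and 25.2% of all genes. Mutant homecage libraries 1 to 4 lay below all 4 trained mutants for 6, 7, 0 and 2. The shares of all genes were 15.4%, 23%, 29.1% and 32.8%. All 4 trained mutants lay below all 4 homecage mutants for 2 of the 23, where 2.42% of all genes did so, and below homecage libraries 1, 2 and 4 also for 2, against 3.64%. *Nptx2*, a pentraxin that clusters AMPA receptors, read 18.8, 39.2, 140 and 164 CPM in homecage libraries 1 to 4 and 21.9, 21.8, 17.6 and 19.9 CPM after CFC. The neurotrophin *Bdnf* read 44.2, 67.9, 130 and 127 CPM in the homecage and 36.6, 48.1, 44 and 47.2 CPM after CFC. Thus libraries 3 and 4 exceeded every trained one several-fold in *Nptx2*, and library 1 was at the trained level. Neither gene was called with 8 libraries (-2.13, SE 0.578, adjusted p = 0.491 for *Nptx2* and -1.06, SE 0.30, adjusted p = 0.491 for *Bdnf*, edgeR) or without library 3 (-1.83, SE 0.594, adjusted p = 0.732 and -0.84, SE 0.292, adjusted p = 0.732).

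Activity genes did not share one order over the homecage libraries. *Fos*, *Egr2* and *Arc* were high in library 3 alone. *Inhba*, the activin subunit, was high in libraries 3 and 4, at 31.5 and 33 CPM, with 5.34 and 7.55 CPM in libraries 1 and 2 and 5.11 to 6.91 CPM after CFC. *Ptgs2*, the inducible cyclooxygenase, read 28.9, 41.6, 240 and 79 CPM in the homecage and 27.8 to 35.7 CPM after CFC, and *Homer1*, a scaffold of metabotropic glutamate receptors, 90, 82.8, 146 and 149 CPM against 94.3 to 104 CPM. *Inhba* and *Ptgs2* were chosen for mention after their values were seen.

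Some neuropeptide and glial genes were high in homecage libraries 2 to 4. These libraries lay above all 4 trained mutants for 8, 7 and 9 of 18 neuropeptide genes. Of all genes, 22.2%, 22.8% and 28.3% did so. With 8 libraries, 12 of the 17 neuropeptide genes tested had a lower and 5 a higher estimate, with a median of -0.08 and 0 called. *Penk*, the enkephalin precursor, read 32.1, 126, 135 and 178 CPM in homecage libraries 1 to 4 and 28.2, 31.7, 30.2 and 34.7 CPM after CFC. *Npy*, neuropeptide Y, read 34.3, 82.2, 114 and 167 CPM against 30.8, 39.8, 29.3 and 32.3 CPM. Libraries 2, 3 and 4 were above all trained mutants in both genes, and library 1 was not. *Mylk3*, a myosin light chain kinase, read 1.62, 10.7, 10.6 and 8.29 CPM against 2.11, 2.8, 1.74 and 1.83 CPM. The astrocyte filament gene *Gfap* read 342, 618, 894 and 1600 CPM in the homecage and 252, 350, 269 and 298 CPM after CFC. These genes were chosen for mention after their values were seen.

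None of these genes was called in either fit. With 8 libraries the log2 estimates were -1.92 (SE 0.404) for *Penk*, -1.57 (SE 0.377) for *Npy*, -1.84 (SE 0.484) for *Mylk3* and -1.56 (SE 0.377) for *Gfap*, each with an adjusted p of 0.491 by edgeR. Without library 3 they were -1.84 (SE 0.439, adjusted p = 0.697), -1.49 (SE 0.412, adjusted p = 0.732), -1.66 (SE 0.512, adjusted p = 0.732) and -1.54 (SE 0.417, adjusted p = 0.732). The count of calls changed most when homecage library 1 was left out, one of the omissions made of each library in turn: then 64 of 16991 genes were higher after CFC (0.377%) and 91 lower (0.536%). Library 1 is the library that differs from the other homecage libraries in *Penk*, *Npy*, *Mylk3* and *Gfap*, so leaving it out selects on their values. The estimates in that fit, -2.24, -1.86, -2.20 and -1.83, are therefore a description and no test of these genes.

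Other transcripts were low in homecage libraries 2 to 4. *Tdo2*, a tryptophan dioxygenase expressed in dentate granule cells, read 9.09, 3.51, 2.13 and 1.38 CPM in homecage libraries 1 to 4 and 6.72, 10.7, 8.69 and 6.84 CPM after CFC. The neurotrophin *Ntf3* read 8.34, 3.91, 1.94 and 3.01 CPM against 7.89, 10.9, 7.17 and 7.96 CPM, and *Rtl3* 4.16, 0.633, 0.425 and 1.32 CPM against 4.96, 7.61, 3.59 and 3.12 CPM. None was called: with 8 libraries the estimates were 0.97 (SE 0.46, adjusted p = 0.545, edgeR) for *Tdo2*, 0.93 (SE 0.359, adjusted p = 0.5) for *Ntf3* and 1.51 (SE 0.584, adjusted p = 0.502) for *Rtl3*, and without library 3 they were 0.78, 0.71 and 1.24, with adjusted p-values of 0.759, 0.732 and 0.732. In WT homecage libraries *Tdo2* lay between 7.31 and 7.8 CPM and *Ntf3* between 5.96 and 7.4 CPM. *Tdo2* and *Rtl3* were chosen for mention after their values were seen.

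**Figure D5:**
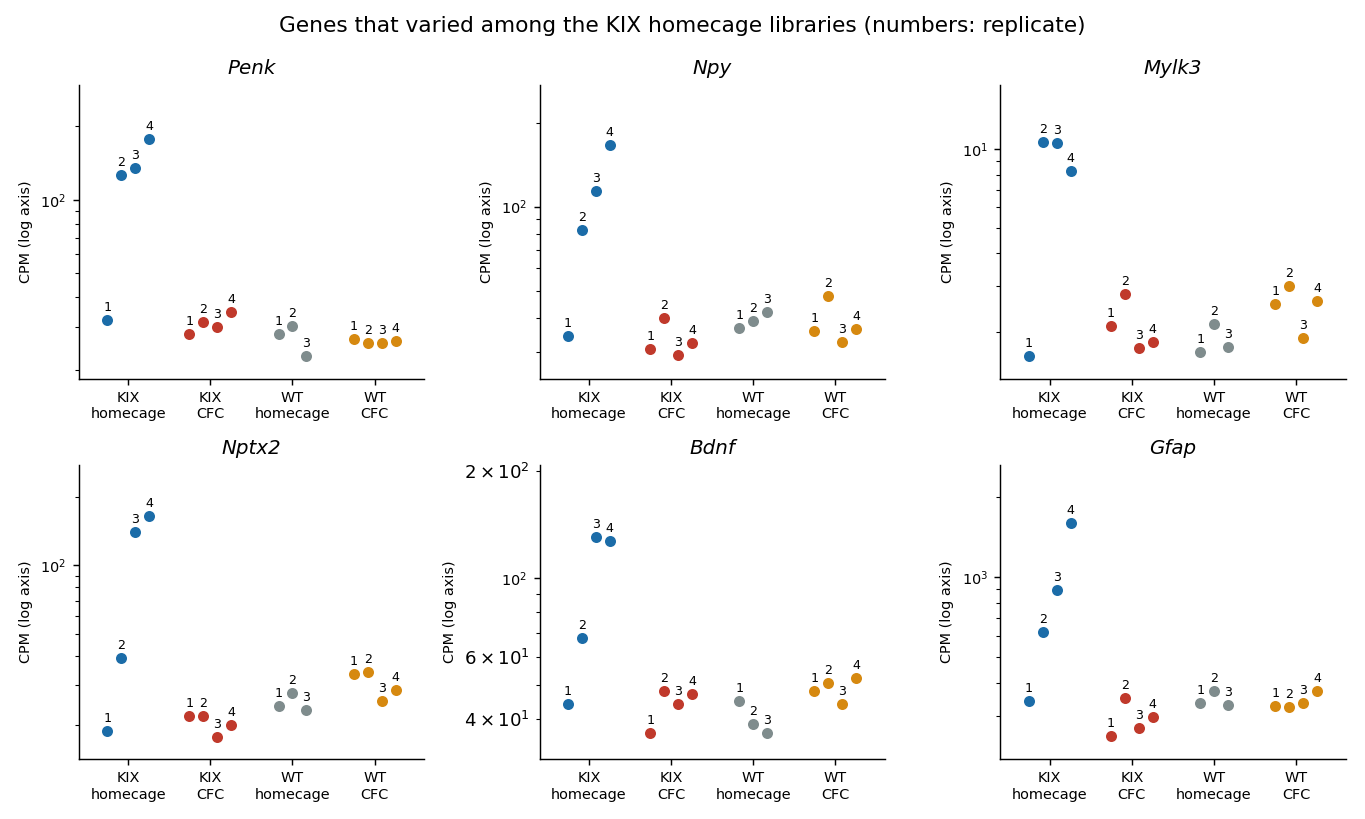
Level in CPM on a log axis of *Penk*, *Npy*, *Mylk3*, *Nptx2*, *Bdnf* and *Gfap*, 1 point per library in the 4 groups of RNA-Seq 2. In each gene mutant homecage library 4 lies above every trained mutant, as for *Penk* at 178 CPM against 28.2 to 34.7, while library 1 lies near the trained and WT libraries.

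The summed level of 10 astrocyte markers, *Gfap* included, was 4695, 5010, 5645 and 6680 CPM in homecage libraries 1 to 4 and 4339 to 4675 CPM after CFC. Without *Gfap* the other 9 summed to 4353, 4392, 4751 and 5085 CPM and to 4069 to 4325 CPM. None of the 10 was called or at 0 in the 8 libraries; 7 had a lower and 3 a higher estimate after CFC, with a median of -0.18. Sums of 7 leptomeningeal markers were 90.7, 220, 221 and 149 CPM in the homecage and 101, 87, 252 and 272 CPM after CFC, and those of 10 microglial markers 372 to 439 CPM against 337 to 407 CPM. In bulk tissue a change in the number of cells of a type and a change in RNA per cell cannot be told apart, and the part of cell composition in the results was not tested.

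The remaining pathway lists held no called gene but *Sik1*. Of 19 genes of the CREB pathway, *Sik1* alone rose without library 3, and none was called with it, with medians of 0.0807 and 0.0784. Among 19 circadian clock genes 0 were called in either fit, 17 of 19 had a positive estimate in both, and the median was 0.201 without library 3 and 0.198 with it, against medians of 0.0035 and 0.0045 over all genes. *Per1*, a clock repressor that is also a CREB target, read 75.5, 53.8, 133 and 46.4 CPM in the homecage and 94.7, 85.6, 88.4 and 93.2 CPM after CFC (0.62 without library 3, SE 0.143, adjusted p = 0.623, and 0.23 with it, SE 0.272, adjusted p = 0.814, edgeR). Of 19 glucocorticoid-responsive genes, 15 cytosolic heat-shock chaperones and 18 endoplasmic reticulum chaperones and stress genes, 0 were called in either fit. Their medians lay between -0.06 and 0.0212.

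A list of genes ranked by their change after another hippocampal task was taken from libraries outside this comparison. The 50 genes with the lowest p among those higher after the Morris water maze than in the homecage were listed from WT mice of the other sequencing experiment. No adjusted threshold was applied to the list. *Fos* and *Egr2*, ranked first, had an adjusted p of 0.0233 by edgeR there, and *Nr4a1*, next in rank, had 0.2165. Genes ranked after *Egr2* were therefore not shown to respond to the maze. In mutants, 6 of the 50 were higher after CFC without homecage library 3, 15 had a positive estimate at an unadjusted p under 0.05 and the median was 0.109, where 0.0694% of 18725 genes were called higher, 595 had a higher estimate at an unadjusted p under 0.05 and the median was 0.0035. With all 8 libraries 0 were called and the median was -0.0184. All 4 trained mutants lay above homecage libraries 1, 2 and 4 for 14 of the 50, against 3.91% of all genes. They lay above all 4 homecage libraries for 2 of the 50, a share near the 2.54% of all genes.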

How the data were processed

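RNA of the dorsal hippocampus was sequenced by the authors from 24 libraries, of which the 15 of RNA-Seq 2 (polyA selection) entered the comparisons and 6 WT libraries of the other experiment gave the water-maze list. The deposited table holds whole-number read counts per gene, made by the authors with STAR, SAMtools 1.6 and featureCounts 1.4.4 on mm10/GRCm38; order and role of the tools, and the strand setting of counting, are not given in the sources used here. Without strand, reads of overlapping genes on opposite strands cannot be told apart. Besides the overlaps given with the results, exons of *Tob2* overlap *Gm49476* on the opposite strand and those of *1700016P03Rik* overlap *Ovca2*. Exons of *Bdnf* overlap *Gm45346* and those of *Penk* overlap *A830012C17Rik* in the same way. No column lacked a sample, and 51633 of 51826 gene IDs had a symbol.

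Groups were taken from the labels. Counts were scaled by upper quartile and tested in edgeR 4.0.16 (R 4.3.3) by the quasi-likelihood F-test after filterByExpr, with Benjamini-Hochberg adjustment over all genes tested, first on 8 CBP KIX/KIX libraries, then without homecage library 3, and for the interaction on 15 or 14 libraries. Estimates are log2 fold changes with SE, CFC minus homecage. CPM uses upper-quartile library sizes over the 15 libraries. Total counts of the 8 libraries ran from 15940061 to 46056290. Code was tested on simulated data. Alternatives used DESeq2 1.42.0, limma 3.58.1 (voom with quality weights), TMM, RLE, other filters, GC normalization, factors of unwanted variation from residuals (RUVr), blocks and omission of libraries.

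Same-numbered homecage and CFC libraries deviated together from their group means (r = 0.29, 0.251, 0.37 and 0.175 across genes, which are not independent). Other pairs did so as well, such as homecage 2 with CFC 1 (0.259), homecage 1 with CFC 2 (0.256) and homecage 3 with CFC 4 (0.245). These values do not show that replicate numbers pair samples. The main fits and the interaction used no pairing, and replicate number entered only as a block in alternative fits. No library was a copy of another.

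Text genes were set by a rule: listed key genes, called genes, list members called or most extreme, and the lowest interaction p; genes outside it are marked as chosen after their values were seen. The comparison, gene lists and rule were chosen with earlier results of these data known. Promoter and microRNA sequences are from RefSeq (GRCm38.p6), gene positions from GENCODE M21.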

Additional observations from a re-analysis of the deposited data

Results flagged for a closer look

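In groups of 4 libraries, a single library was set against the range of its group: its gap to the nearest library was divided by the whole range, and values above Dixon's 95% critical value were picked out. Of 94 gene and group combinations examined, 15 passed; chance alone gives about 1 in 20 groups. Homecage library 3 of the CBP KIX/KIX mice was the high library in 14 of them. That library had been singled out by its activity genes, so these 14 values describe what was already known and are no independent evidence. The share of the range taken by its gap was 0.975 for *Fos*, 0.986 for *Egr2*, 0.965 for *Npas4*, 0.956 for *Arc*, 0.911 for *Egr1*, 0.869 for *Sik1*, 0.941 for *Nr4a1* and 0.96 for *Junb*. It was 0.958 for *Ier2*, 0.913 for *Egr4*, 0.891 for *Btg2*, 0.975 for *Fosb*, 0.925 for *Dusp6* and 0.907 for the microRNA host transcript *1700016P03Rik*. These genes are not independent of one another, and what set this library apart was not tested. The remaining case was *Ptgs2* in CFC library 2 of the mutants, with a share of 0.851 and a level of 35.7 CPM against 27.8 to 29 CPM in the other trained mutants.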

How the results depend on the processing

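With 8 libraries, 2 genes were called in the fit as reported. DESeq2 called 46 (27 higher, 19 lower), 1 RUVr factor gave 137 and 3 factors 712, the fit of all 4 groups gave 0, libraries numbered 3 and 4 alone gave 665, and the fit without homecage libraries 3 and 4, chosen after seeing the data, gave 9. Without homecage library 3, 13 genes were called. DESeq2 gave 39, 3 RUVr factors 378, the replicate block 0 and the choroid plexus covariate, chosen after seeing the data, 7. Leaving out 1 library gave 0 to 155 calls from 8 libraries and 1 to 35 from 7, where the count was 1 without CFC library 1 and 35 without homecage library 1. TMM, RLE, voom, robust estimation, filters and the depth block kept the counts within 1.5 times. For the interaction, DESeq2 called 1 gene (*Ngb*) in each fit, and leaving out 1 library gave 0 to 63 calls with 15 libraries and 0 to 8 with 14, the upper values without homecage library 1. Of the water-maze list 0 of 50 were called with 8 libraries and 0 to 6 on leaving out 1 library. Without homecage library 3, 6 of 50 were called, 0 under the replicate block, 1 to 6 on leaving out 1 further library, and 10 of 21 when the WT fear-conditioning genes, chosen after seeing the data, were the list. Of 36 single genes followed, 25 kept the sign of their 8-library estimate without homecage library 3, 23 without homecage libraries 3 and 4, and 22 with libraries 1 and 2 only. Among the changes of sign where the gene was called in one of the fits compared, leaving out 1 library gave log2 fold changes from -0.4619 to 1.108 for *Junb*, -0.8823 to 2.909 for *Fos*, -1.401 to 3.102 for *Egr2*, -0.563 to 1.289 for *Nr4a1* and -1.23 to 1.498 for *Npas4*. The others were without homecage libraries 3 and 4 for *Junb* (1.088), *Fos* (3.251) and *Egr2* (3.322), and with libraries 1 and 2 only for *Fos* (3.105); the remaining changes of sign were of genes called in neither fit. The causes of these changes were not tested. Apart from the values given here and beside the results, the replicate block changed no other count of calls. With 2 to 4 libraries a group and 15940061 counts in the shallowest, small changes of low transcripts were not detectable.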

Other observations

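The spread between libraries differed among the 4 groups of RNA-Seq 2. The biological coefficient of variation shared over genes was 15.2% in homecage mutants, 14.8% without library 3, 12.4% in trained mutants, 11.6% in homecage WT and 10.3% in trained WT. The dopamine receptor *Drd1* and the neuropeptide galanin, *Gal*, were, like *Penk*, higher in homecage libraries 2 to 4 than in any trained mutant: *Drd1* read 4.57, 14.3, 14 and 20.7 CPM in homecage mutants 1 to 4 and 4.16 to 7.3 CPM after CFC, and *Gal* read 0.248, 1.2, 2.31 and 4.33 CPM against 0.17 to 0.426 CPM. *Gpnmb*, a glycoprotein of phagocytic cells, read 5.54, 15.7, 9.12 and 18.4 CPM against 3.68 to 5.07 CPM. With 8 libraries the log2 estimates were -1.22 (SE 0.384) for *Drd1*, -2.54 (SE 0.748) for *Gal* and -1.44 (SE 0.33) for *Gpnmb*, each with an adjusted p of 0.491 by edgeR and thus not called. The mitochondrially encoded messages were highest in homecage library 3 among 15 libraries for 7 of 13, against 7.32% of all genes tested. Their summed levels were 43560 to 47350 CPM in homecage mutants and 40810 to 45090 CPM in trained mutants. *Drd1* and the mitochondrial list were chosen for mention after their values were seen.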
